A study of Homo sapiens with 6 samples.

Results

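The 10 genes described here are targets of the YAP-TEAD transcription complex outside the CCN family, namely ANKRD1, AMOTL1, AMOTL2, AXL, AJUBA, CRIM1, NT5E, NUAK2, PTPN14 and MYOF. They were taken as a named list, were found by symbol and Entrez gene ID, and make up 10 of the 27257 genes listed in at least 1 library table. RNA-seq had been run on U87MG, an established line derived from a human malignant glioma, in 3 libraries named U87MG-control, from cells given a control lentivirus for 24 h, and 3 named U87MG-LMO2, from cells given an LMO2 lentivirus for 24 h. Both groups therefore carried a virus, and no uninfected cells were compared. LMO2 was driven from a viral vector and encodes a LIM-domain adaptor protein. The labels do not say whether libraries of a group came from separate infections, so p-values measure only the spread between these libraries, which may be technical.

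As background, YAP and its paralog TAZ are co-activators that cannot bind DNA by themselves and act through the TEAD transcription factors. The kinases of the Hippo pathway phosphorylate YAP and TAZ and hold them in the cytoplasm, whereas cell spreading, stiff matrix and low density let them enter the nucleus. Several of their target genes act back on the pathway: AMOTL1, AMOTL2 and PTPN14 encode proteins that bind YAP and restrain it, AJUBA encodes a LIM protein that inhibits the LATS kinases, and NUAK2 encodes a kinase that raises actomyosin tension. The other targets include a nuclear and sarcomeric ankyrin repeat protein (ANKRD1) and proteins of the cell surface or membrane (AXL, CRIM1, NT5E and MYOF).

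The TEAD factors recognise a core of 6 bases, CATTCC, which reads GGAATG on the other strand. RefSeq promoter windows (GRCh38.p14, 250 bases before to 50 bases after a start site) were at hand for 9 of the 10 genes, with 12 windows in all, and the core was present on either strand in 6 windows, each of a different gene. Of all 35116 promoter windows of this length, 14.0% held it, and of all 27305 genes with a window, 16.7%. The windows below are those of the gene that rose most and the gene that fell most among the 9 tested genes, followed by both genes with 2 matches. Each is written 5′ to 3′ on the strand of the gene, with a match in capitals.
AMOTL2: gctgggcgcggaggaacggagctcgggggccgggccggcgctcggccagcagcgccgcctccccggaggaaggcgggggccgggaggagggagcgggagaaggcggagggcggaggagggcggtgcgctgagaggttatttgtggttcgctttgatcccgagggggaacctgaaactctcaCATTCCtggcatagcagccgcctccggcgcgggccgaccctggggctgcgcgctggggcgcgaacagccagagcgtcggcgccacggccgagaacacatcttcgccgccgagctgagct
NT5E: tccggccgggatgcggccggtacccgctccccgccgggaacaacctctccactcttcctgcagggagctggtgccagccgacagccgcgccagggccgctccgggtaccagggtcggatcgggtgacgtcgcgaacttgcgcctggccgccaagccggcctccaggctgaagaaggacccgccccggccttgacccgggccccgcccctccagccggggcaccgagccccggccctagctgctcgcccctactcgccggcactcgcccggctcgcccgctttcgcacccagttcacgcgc
ANKRD1: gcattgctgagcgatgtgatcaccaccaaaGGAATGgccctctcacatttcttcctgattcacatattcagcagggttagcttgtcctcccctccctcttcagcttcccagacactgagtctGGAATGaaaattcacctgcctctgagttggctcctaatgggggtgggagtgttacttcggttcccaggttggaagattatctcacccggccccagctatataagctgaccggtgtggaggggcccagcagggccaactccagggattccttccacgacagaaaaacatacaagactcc
NUAK2: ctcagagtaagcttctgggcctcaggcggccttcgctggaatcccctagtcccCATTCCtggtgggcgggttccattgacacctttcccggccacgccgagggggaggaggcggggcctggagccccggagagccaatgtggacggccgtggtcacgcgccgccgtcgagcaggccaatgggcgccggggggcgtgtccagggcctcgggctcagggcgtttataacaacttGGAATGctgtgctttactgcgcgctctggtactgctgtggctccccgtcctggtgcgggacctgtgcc

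The AMOTL2 window lies at chr3:134374398-134374697 (minus strand), at the more 3′ of its 2 listed start sites, and its match begins at base -69 from that start. The ANKRD1 window, chr10:90921038-90921337 (minus strand), has matches at -220 and -128, and the NUAK2 window, chr1:205321696-205321995 (minus strand), at -197 and -18. The NT5E window, chr6:85449833-85450132 (plus strand), holds no match, nor do those of AMOTL1 and MYOF. PTPN14 has 1 match at -200, and AXL and AJUBA have 1 each at the second listed start, at -212 and -59. These letters are a description of the windows, and no binding was measured.

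LMO2 (4005) served as a check of the labels. Its normalised read count (CPM, scaled to the library size after TMM normalization) was 0.607, 0.803 and 0.378 in U87MG-control replicates 1 to 3 and 333.0, 307.0 and 877.9 in U87MG-LMO2 replicates 1 to 3. Total expected counts were between 11428432 and 13537284 in U87MG-control and between 14630627 and 17892955 in U87MG-LMO2, so that the 3 U87MG-LMO2 libraries were the deepest. In each group 1 library stood apart. Over all genes, the chi-square per degree of freedom between replicates was 2.27 for U87MG-control replicates 2 and 3 but 10.8 and 10.2 for pairs with replicate 1. It was 7.57 for U87MG-LMO2 replicates 1 and 2 but 40.3 and 54.4 for pairs with replicate 3, so results are also given without these libraries. Of the glioma and mesenchymal markers, VIM (10908 to 13155 CPM), CD44 (1121 to 1502 CPM) and FN1 (2541 to 9016 CPM) were abundant. NES (40.2 to 48.9 CPM) and CHI3L1 (86.5 to 435.6 CPM) were present, and OLIG2 (at most 1.06 CPM), SOX2 (at most 0.241 CPM) and S100B (at most 0.0610 CPM) were at or near 0. PTPRC, CDH5, EPCAM and RBFOX3, markers of immune, endothelial, epithelial and neuronal cells, stayed at or below 0.601 CPM in each library. Of the same list, the endothelial marker PECAM1 was at 4.03 to 5.47 CPM, the epithelial marker CDH1 at 2.10 to 2.99 CPM and the macrophage marker CD68 at 292.4 to 570.1 CPM. By edgeR and DESeq2, 0 of the 6 tested glioma and mesenchymal markers and 0 of the 3 tested markers of other cells were called. Of all genes tested, edgeR called 7.48%, and DESeq2 called 979 higher and 685 lower of 15475. At an unadjusted edgeR p under 0.05 there were 1 (FN1) and 0, where 4143 of all 16092 genes tested passed. FN1 was higher in U87MG-LMO2 without overlap of the groups (log2 fold change 0.99, edgeR adjusted p 0.0755). With so few markers, counts of 0 do not show that the markers were unchanged.

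AMOTL2, AJUBA and CRIM1 rose in U87MG-LMO2, and NT5E and AMOTL1 fell. AXL, NUAK2, PTPN14 and MYOF did not pass the test, and ANKRD1 was too low to be tested. Thus 9 of the 10 genes passed the filter on low counts. Of these, 5 were called (edgeR adjusted p under 0.05) where 7.48% of all 16092 genes tested were. The 5 were 3 called higher, against 4.72% of all genes tested, and 2 called lower, against 2.75%. The values of the 2 groups did not overlap for 7 of the 9 genes, 4 higher and 3 lower, where 34.1% of all tested genes did not overlap (17.5% higher and 16.6% lower). The 10 genes were chosen with earlier results of these data known, so these shares describe them and do not test the list. The median log2 fold change was 0.43 over the 9 genes and -0.01 over all genes tested. It dropped to 0.23 without U87MG-LMO2 replicate 3 and to 0.29 without U87MG-control replicate 1. These are bulk libraries, so a change in RNA per cell and a change in the share of cells that express a gene cannot be told apart.

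**Figure D1:**
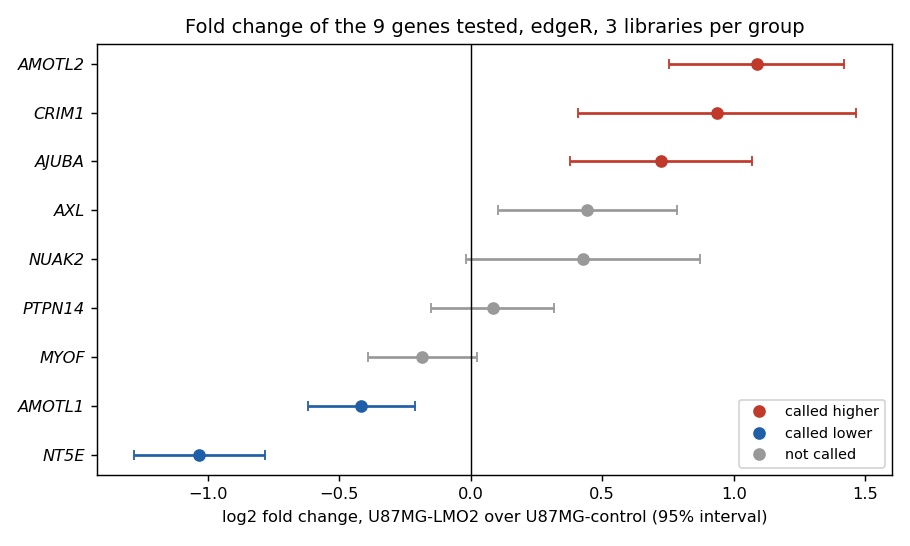
Log2 fold change of U87MG-LMO2 over U87MG-control (horizontal axis) for the 9 genes tested, with 95% intervals from the edgeR fit; red, called higher; blue, called lower; grey, not called. AMOTL2 at 1.09 and NT5E at -1.03 lie at the ends, and the intervals of NUAK2, PTPN14 and MYOF include 0.

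Among the genes whose proteins feed back on the pathway, AMOTL2 (51421; chr3:134355874-134375479, minus strand, GRCh38) changed most. It stood at 51.9, 71.8 and 68.6 CPM in U87MG-control replicates 1 to 3 and at 127.1, 155.5 and 126.1 CPM in U87MG-LMO2 replicates 1 to 3. Every U87MG-LMO2 library was above every control, by a wide gap. The mean rose from 64.1 ± 10.7 to 136.2 ± 16.7 CPM (SD, n = 3), a 2.12-fold increase (95% interval 1.69 to 2.68). The log2 fold change was 1.09 (SE 0.15) at an edgeR adjusted p of 0.00728. The call held in each of the 6 fits that left out 1 library, with an adjusted p of at most 0.0406.

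AMOTL1 (154810; chr11:94706431-94876753, plus strand) encodes another member of the angiomotin family and moved the other way. Its normalised read count was 78.7, 80.0 and 85.3 CPM in the control libraries and 60.4, 60.1 and 62.4 CPM in the U87MG-LMO2 libraries. The libraries of each group lay close together and the groups did not overlap. AMOTL1 was 1.33-fold lower in U87MG-LMO2 (95% interval 1.16 to 1.54), with means of 81.3 ± 3.48 and 60.9 ± 1.25 CPM (SD, n = 3). On the log2 scale this is -0.42 (SE 0.09), at an edgeR adjusted p of 0.0312. The call was lost without U87MG-control replicates 1, 2 or 3 (adjusted p 0.0815, 0.121 and 0.156) and without U87MG-LMO2 replicates 1 or 2 (0.123 and 0.0618), and held without U87MG-LMO2 replicate 3 (0.00950). The log2 fold change in these fits stayed between -0.44 and -0.38. Those that lost the call called 46, 56, 42, 48 and 304 of all genes lower, in this order, against 443 in the main fit. The call was also lost after removal of the GC-content trend (0.0798) and with limma on log2(FPKM + 1) (0.0913), with a log2 fold change of -0.35 in both.

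This pair can also be compared as a ratio within each library, where no scaling to library size enters, though the length of each gene does. The ratio alone does not tell which of the genes moved. The ratio of AMOTL2 to AMOTL1 in FPKM, a level per length, was 0.942, 1.34 and 1.14 in the control libraries and 2.98, 3.57 and 2.81 in the U87MG-LMO2 libraries. Both genes were thus at similar levels in the controls, and AMOTL2 exceeded AMOTL1 in every U87MG-LMO2 library. The mean ratio was 1.14 ± 0.199 in U87MG-control and 3.12 ± 0.399 in U87MG-LMO2 (SD, n = 3).

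PTPN14 (5784; chr1:214348696-214552449, minus strand), a cytoplasmic tyrosine phosphatase that binds YAP, showed no such difference. It was at 204.3, 194.8 and 199.5 CPM in U87MG-control and at 196.2, 236.0 and 202.0 CPM in U87MG-LMO2. The groups overlapped, and U87MG-LMO2 replicate 2 was the highest library. With a log2 fold change of 0.08 (SE 0.10; edgeR adjusted p 0.648), the 95% interval of the ratio of U87MG-LMO2 to control ran from 0.901 to 1.25.

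AJUBA (84962; chr14:22971174-22982642, minus strand) is, like LMO2, a gene for a LIM-domain protein, and its product scaffolds cell junctions and inhibits the LATS kinases. It had 19.7, 28.8 and 24.3 CPM in the control libraries and 41.5, 42.8 and 36.2 CPM in the U87MG-LMO2 libraries. The lowest U87MG-LMO2 library, replicate 3, was above the highest control. AJUBA rose 1.65-fold (95% interval 1.30 to 2.10), from 24.3 ± 4.56 to 40.2 ± 3.50 CPM (SD, n = 3). Its log2 fold change was 0.72 (SE 0.15) at an edgeR adjusted p of 0.0291. Without U87MG-control replicates 1, 2 or 3 the adjusted p was 0.0942, 0.0538 and 0.118, and without U87MG-LMO2 replicates 1 or 2 it was 0.104 and 0.0553. Without U87MG-LMO2 replicate 3 it was 0.00681, and on log2(FPKM + 1) limma gave 0.0679. The log2 fold change in these fits stayed between 0.59 and 0.87.

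NUAK2 (81788; chr1:205302059-205321791, minus strand), a kinase of the AMPK-related family, was expressed at a low level. It was at 8.17, 8.64 and 9.89 CPM in U87MG-control and at 11.6, 9.24 and 14.98 CPM in U87MG-LMO2. Replicate 2 of U87MG-LMO2 fell among the controls, and replicate 3 was the highest. Its log2 fold change was 0.43 (SE 0.20), which missed the threshold (edgeR adjusted p 0.211), and the 95% interval of the ratio, 0.988 to 1.83, does not leave out a rise of the size seen for AJUBA. On the log2(FPKM + 1) scale the difference was 0.19, and without U87MG-LMO2 replicate 3 the log2 fold change was 0.23.

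ANKRD1 (27063; chr10:90912096-90921276, minus strand) is widely used as a readout of YAP activity, and in muscle its product binds the sarcomere. Here it was hardly detected, with 1, 2 and 1 expected counts in the control libraries and 4, 7 and 5 in the U87MG-LMO2 libraries. These counts correspond to 0.0868, 0.146 and 0.0757 CPM and to 0.244, 0.477 and 0.301 CPM. Every U87MG-LMO2 library had more than every control, but each count was within a few reads of 0. Summed over libraries and scaled to library size, the ratio of 16 to 4 counts was 3.23, with a 95% interval from 1.04 to 13.3 that covers counting error only. With 1 library left out the ratio ranged from 2.62 to 4.15. Its interval then included 1 without U87MG-control replicate 1 (0.862 to 16.1), U87MG-control replicate 2 (0.976 to 37.2), U87MG-control replicate 3 (0.808 to 15.1) or U87MG-LMO2 replicate 2 (0.732 to 11.6). In a fit without the filter on low counts, the edgeR adjusted p was 0.269. The depth is thus too low to say whether ANKRD1 differed.

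**Figure D2:**
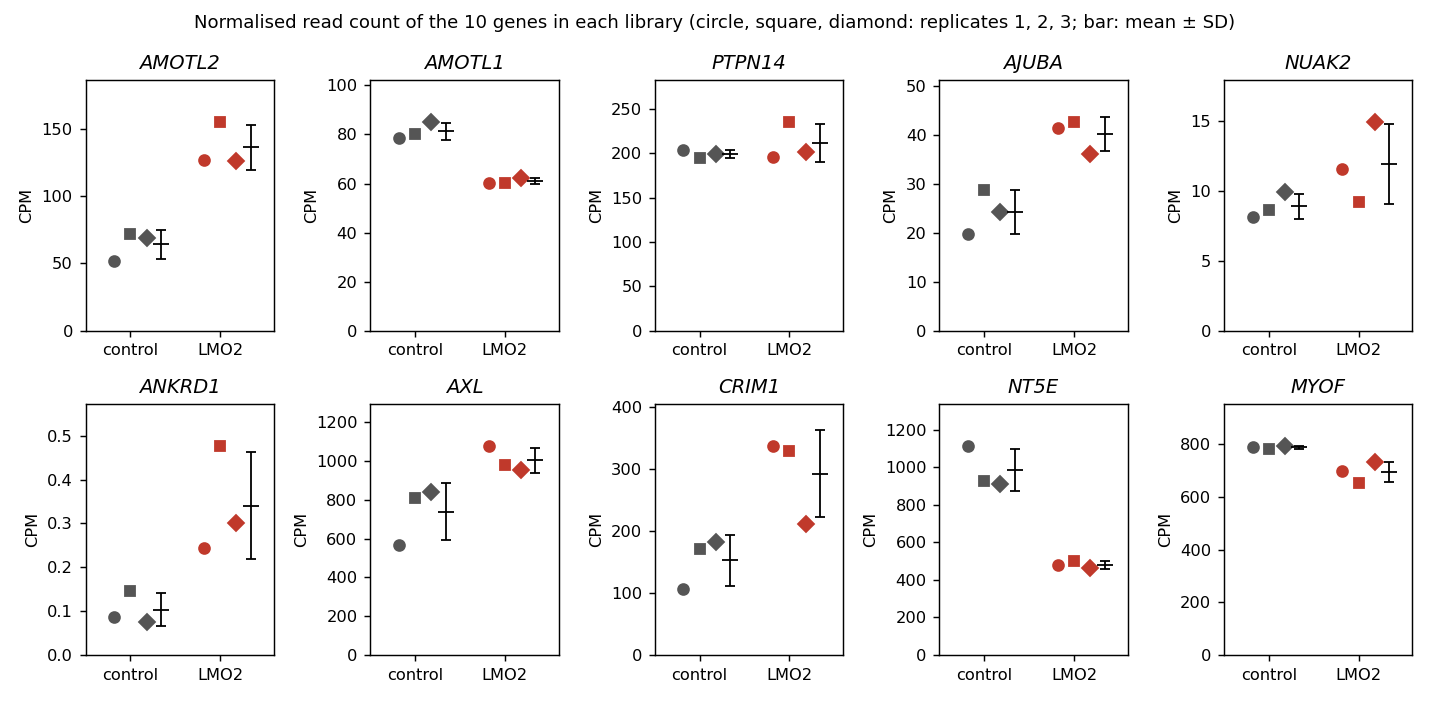
Normalised read count (CPM, vertical axes from 0, a scale of its own for each gene) of the 10 genes in the 3 U87MG-control libraries (grey) and the 3 U87MG-LMO2 libraries (red). Circles, squares and diamonds are replicates 1, 2 and 3, and the bar beside each group is the mean ± SD; the groups overlap for NUAK2 and PTPN14, and ANKRD1 stays below 0.5 CPM.

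Of the genes for surface and membrane proteins, NT5E (4907; chr6:85449584-85495791, plus strand) fell most. It encodes CD73, the enzyme that makes adenosine from AMP outside the cell. Its normalised read count was 1114.7, 927.2 and 912.5 CPM in U87MG-control replicates 1 to 3 and 479.6, 503.3 and 461.8 CPM in U87MG-LMO2 replicates 1 to 3. All U87MG-LMO2 libraries lay far below all controls. NT5E was 2.04-fold lower in U87MG-LMO2 (95% interval 1.72 to 2.43), with means of 984.8 ± 113 and 481.6 ± 20.9 CPM (SD, n = 3). On the log2 scale the difference was -1.03 (SE 0.11) at an edgeR adjusted p of 0.00344. Leaving out any 1 library kept the call, with an adjusted p of at most 0.0264. Among all 16092 genes tested, NT5E ranked 32 by p and AMOTL2 ranked 103.

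CRIM1 (51232; chr2:36355926-36551135, plus strand) encodes a transmembrane protein with cysteine-rich repeats that binds BMP ligands. It was at 105.8, 170.1 and 181.8 CPM in the control libraries and at 336.8, 328.0 and 211.4 CPM in the U87MG-LMO2 libraries. Replicate 1 was far below the other controls, and U87MG-LMO2 replicate 3 was far below the other U87MG-LMO2 libraries, though still above every control. CRIM1 rose 1.91-fold (95% interval 1.33 to 2.76), from 152.6 ± 40.9 to 292.1 ± 69.98 CPM (SD, n = 3). The fit gave 0.94 on the log2 scale (SE 0.23) at an edgeR adjusted p of 0.0465. This call was close to the threshold and was lost without U87MG-control replicates 1, 2 or 3 (adjusted p 0.135, 0.116 and 0.0992), without U87MG-LMO2 replicates 1 or 2 (0.152 and 0.0823) and with limma on log2(FPKM + 1) (0.0690), at log2 fold changes from 0.73 to 1.08. Without U87MG-LMO2 replicate 3 the adjusted p was 0.00459, with a log2 fold change of 1.12. The fits that left out 1 library and lost the call also called fewer of all genes higher than the main fit, as given for AJUBA.

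AXL (558; chr19:41219203-41261766, plus strand), a receptor tyrosine kinase of the TAM family, had a higher mean in U87MG-LMO2 but did not pass the test. Its values were 569.1, 807.0 and 839.3 CPM in U87MG-control and 1077.6, 981.1 and 955.0 CPM in U87MG-LMO2. The groups did not overlap, and U87MG-control replicate 1 was the lowest library by a wide margin. The log2 fold change was 0.44 (SE 0.15; 95% interval of the ratio 1.07 to 1.72) and the edgeR adjusted p was 0.106. Leaving out U87MG-control replicate 1 lowered the log2 fold change to 0.29 (adjusted p 0.206). Without both libraries that stood apart, U87MG-control replicate 1 and U87MG-LMO2 replicate 3, it was 0.32 with an edgeR adjusted p of 0.00773. That fit was chosen after the data were seen, and it called 1570 of all 16234 genes tested higher.

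MYOF (26509; chr10:93306429-93482317, minus strand) encodes myoferlin, a ferlin protein of membrane repair and fusion. It was the steadiest of the 10 genes among controls, at 790.9, 782.9 and 794.0 CPM, and stood at 699.1, 654.7 and 731.5 CPM in U87MG-LMO2. Every U87MG-LMO2 library was below every control, by a small amount. At -0.18 on the log2 scale (SE 0.09), the difference missed the threshold (edgeR adjusted p 0.243), and after removal of the GC-content trend it was -0.06. Without both libraries that stood apart it was -0.22 and passed, with an edgeR adjusted p of 0.0327. That fit was chosen after the data were seen, and it called 1384 of all 16234 genes tested lower.

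The libraries that stood apart over all genes were followed within the 9 tested genes. U87MG-control replicate 1, the shallowest library, was the lowest of the controls for 6 of the 9 tested genes (AMOTL1, AMOTL2, AXL, AJUBA, CRIM1 and NUAK2) and the highest for NT5E and PTPN14. U87MG-LMO2 replicate 3, which held the most LMO2, was the lowest of its group for AMOTL2, AXL, AJUBA, CRIM1 and NT5E and the highest for AMOTL1, NUAK2 and MYOF. The library with the most LMO2 was thus not the one with the largest departure from the controls for AMOTL2, AJUBA, CRIM1, AXL, AMOTL1 or MYOF, and it was for NT5E and NUAK2. By the median deviation from the group mean on the log2 scale, U87MG-control replicate 1 (-0.12) lay furthest from its group, whereas U87MG-LMO2 replicate 3 (-0.06) lay no further than replicate 2 (0.06). Without both libraries, 4 of the 9 genes were called higher and 3 lower. In that fit, 1570 of all 16234 genes tested were called higher and 1384 lower. The part of these libraries in the results, and that of depth, was not tested further.

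**Figure D3:**
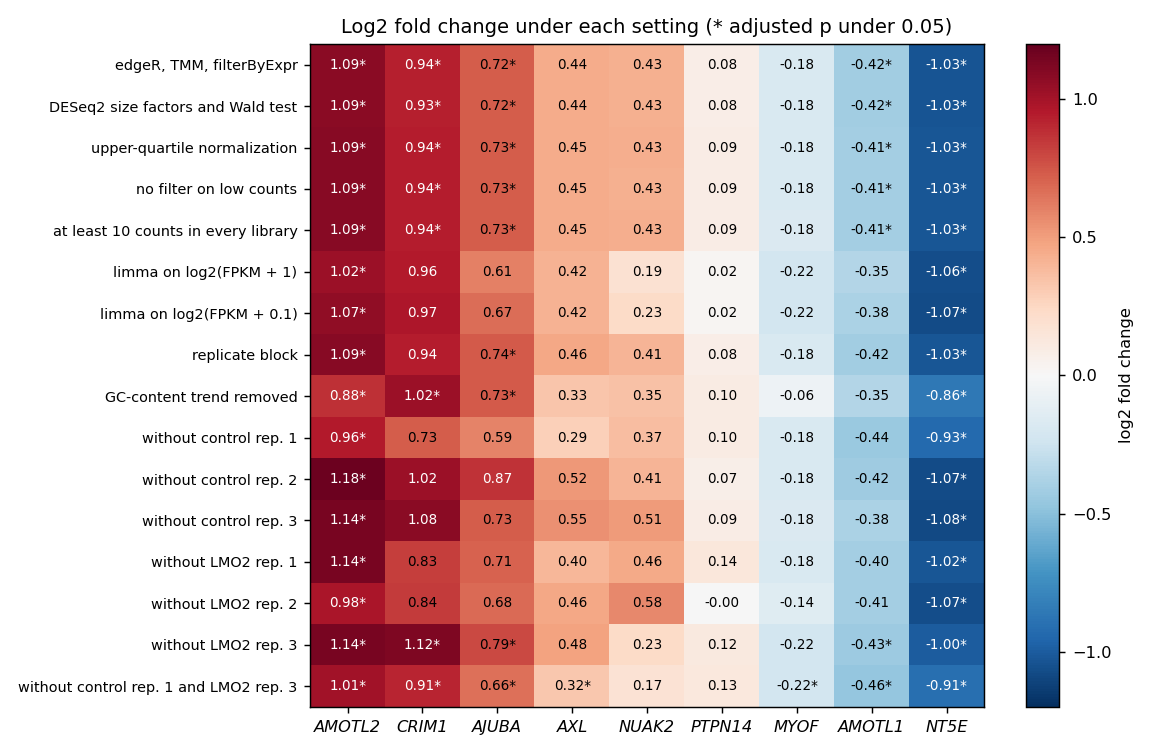
Log2 fold change of the 9 genes tested (columns) under each setting of the analysis (rows, named at the left), with an asterisk where the adjusted p is under 0.05; red is higher and blue is lower in U87MG-LMO2. AMOTL2 and NT5E carry an asterisk in every row, and NUAK2 and PTPN14 in none.

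Levels between genes were compared in FPKM, per length. In U87MG-control the order from high to low was NT5E (241.7 ± 27.5), AXL (155.6 ± 31.1), MYOF (115.6 ± 1.04), CRIM1 (35.2 ± 10.3), PTPN14 (20.9 ± 0.852), AMOTL2 (15.4 ± 2.89), AMOTL1 (13.5 ± 1.13), AJUBA (6.15 ± 0.826), NUAK2 (3.08 ± 0.389) and ANKRD1 (0.05 ± 0.0173 FPKM, SD, n = 3). Of the neighbours in this order, AMOTL2 and AMOTL1 overlapped between libraries, and no others did. In U87MG-LMO2, AXL (206.1 ± 22.0 FPKM) took the first place from NT5E (115.0 ± 9.97 FPKM), and AMOTL2 (32.1 ± 4.77 FPKM) moved above PTPN14 (21.3 ± 2.47 FPKM). AMOTL1 (10.3 ± 0.215 FPKM) and AJUBA (9.94 ± 1.81 FPKM) were the neighbours that overlapped there. The 3 genes with the highest level of the 10 were the same in both groups, and all 3 encode surface or membrane proteins.

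**Figure D4:**
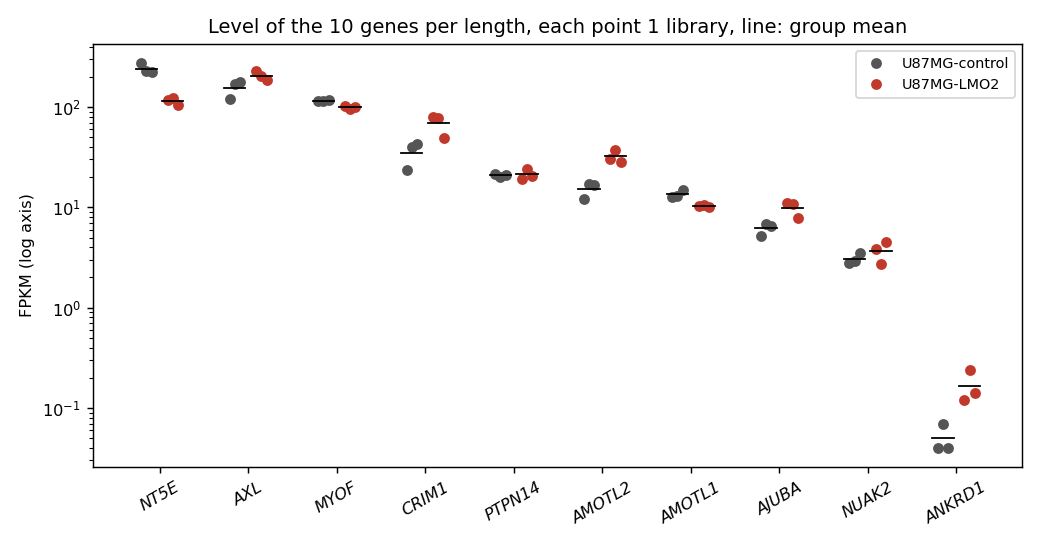
Level per length (FPKM, log axis) of the 10 genes in each library, U87MG-control in grey and U87MG-LMO2 in red, with a line at each group mean and the genes ordered by their control level. NT5E drops from 241.7 to 115.0 FPKM while AXL stands at 155.6 and 206.1 FPKM, and ANKRD1 lies at 0.24 FPKM or below in every library.

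The library tables also give a gene length, which in the layout of these files is the mean transcript length weighted by abundance and moves when the mix of transcripts does. It differed between the groups without overlap for CRIM1 and NUAK2, among 11208 tested genes with a varying length of which 16.6% did not overlap. CRIM1 had 4268 to 4518 bases in U87MG-control and 3957 to 4250 bases in U87MG-LMO2, and NUAK2 had 2822 to 2973 bases and 3030 to 3410 bases. For AJUBA the lengths overlapped, at 3769 to 4246 and 3743 to 4220 bases. Its U87MG-LMO2 replicate 3 had the greatest length of that group and the lowest FPKM of it, 7.86 against 11.2 and 10.8 in replicates 1 and 2. NT5E (4071 to 4078 bases) and AXL (4734 to 4738 bases) hardly varied.

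Reads shared with other genes limit some of these values. The expected counts of AXL, AJUBA, NUAK2 and PTPN14 were not whole in any library, as happens when reads are divided between genes, whereas those of ANKRD1, AMOTL2, CRIM1, NT5E and MYOF were whole in all 6. In the GENCODE v29 annotation, PTPN14 overlaps 3 further genes and AMOTL2 overlaps 2, with pseudogenes in both sets. AJUBA overlaps a further protein-coding gene on its own strand, CRIM1 overlaps FEZ2 on the opposite strand, and AMOTL1, AXL and CRIM1 have antisense genes. Whether counting used strand is not given in the sources used here, so reads of these genes and their antisense partners may not have been told apart where they overlap.

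Other genes of the pathway were taken from 3 lists. These were chosen with earlier results of these data known, so their shares and medians describe the lists and do not test them. Of 14 further YAP-TEAD targets, 13 were tested and 6 were called higher, where 4.72% of all genes tested were. The median log2 fold change was 0.47 over the list and -0.01 over all genes tested. They were CCN2 (log2 fold change 1.75), IGFBP3 (1.61), CCN1 (1.52), TGFB2 (0.99), ARHGEF17 (0.88) and GADD45A (0.47), with edgeR adjusted p values from 0.00390 for CCN1 to 0.0448 for GADD45A. CCN1 and CCN2 encode matricellular proteins and are the targets most often used to read YAP activity. F3, the gene of tissue factor, and FJX1 had log2 fold changes of 1.37 and 0.42 and did not pass (adjusted p 0.0725 and 0.127). None of the 13 was called lower by edgeR or by DESeq2. At an unadjusted edgeR p under 0.05, 9 were higher and 1, RBMS3, was lower, where 4143 of all 16092 genes tested passed. The count called higher was 2 without U87MG-control replicate 1, and 3 without U87MG-control replicate 2, U87MG-control replicate 3 or U87MG-LMO2 replicate 1. Each of these fits also called fewer of all genes higher than the 760 of the main fit. The fewest were 102, without U87MG-control replicate 3. The smaller counts are thus not particular to this list.

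Among the genes of the pathway itself, from YAP1, WWTR1 and the TEAD factors to the kinases and their partners, 18 were tested and 1 was called, a share of 5.56% against 7.48% of all genes tested. VGLL3, a TEAD cofactor, rose from 19.4 to 59.0 CPM on average, with a log2 fold change of 1.61 and an edgeR adjusted p of 4.13e-04. YAP1 was at 101.5, 103.8 and 108.4 CPM in U87MG-control and at 91.3, 90.7 and 96.5 CPM in U87MG-LMO2 (log2 fold change -0.17, adjusted p 0.265). WWTR1, which encodes TAZ, had a log2 fold change of -0.37 (adjusted p 0.189). TAOK1 and STK3, kinases upstream of LATS, had -0.59 and -0.49 and did not pass (adjusted p 0.1002 and 0.192). At an unadjusted edgeR p under 0.05, 3 genes were higher and 3 were lower, where 4143 of all 16092 genes tested passed. The higher ones were VGLL3, NF2 (log2 fold change 0.31, adjusted p 0.0771) and TEAD3 (0.35, adjusted p 0.111). The lower ones were WWTR1, TAOK1 and STK3. No gene of this list was called lower by edgeR, and DESeq2 called TAOK1 lower. The median log2 fold change of the list was -0.12.

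Of the paralogs and partners of the 10 genes, 13 were tested and 1 was called, a share of 7.69% against 7.48% of all genes tested. GAS6, the ligand of AXL, rose from 36.6, 42.4 and 43.5 CPM in the control libraries to 65.5, 67.6 and 71.0 CPM in the U87MG-LMO2 libraries (log2 fold change 0.74, edgeR adjusted p 0.00919). The groups were well apart, and no gene of this list passed without U87MG-control replicate 2. TYRO3 and MERTK, the other receptors of the TAM family, had log2 fold changes of 0.15 and 0.03 (adjusted p 0.542 and 0.967). Around NT5E, ENTPD1, which makes its substrate AMP, had a log2 fold change of -0.04 and the adenosine receptor gene ADORA2B one of -0.28, and neither passed (adjusted p 0.881 and 0.180). The largest other differences were those of FER1L6 (-1.04), at 2.04 to 8.85 CPM, and NUAK1 (0.34), with adjusted p values of 0.131 and 0.190. By edgeR and by DESeq2 no gene of this list was called lower. At an unadjusted edgeR p under 0.05, 2 were higher and 2 lower (FER1L6 and ADORA2B), where 4143 of all 16092 genes tested passed.

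**Figure D5:**
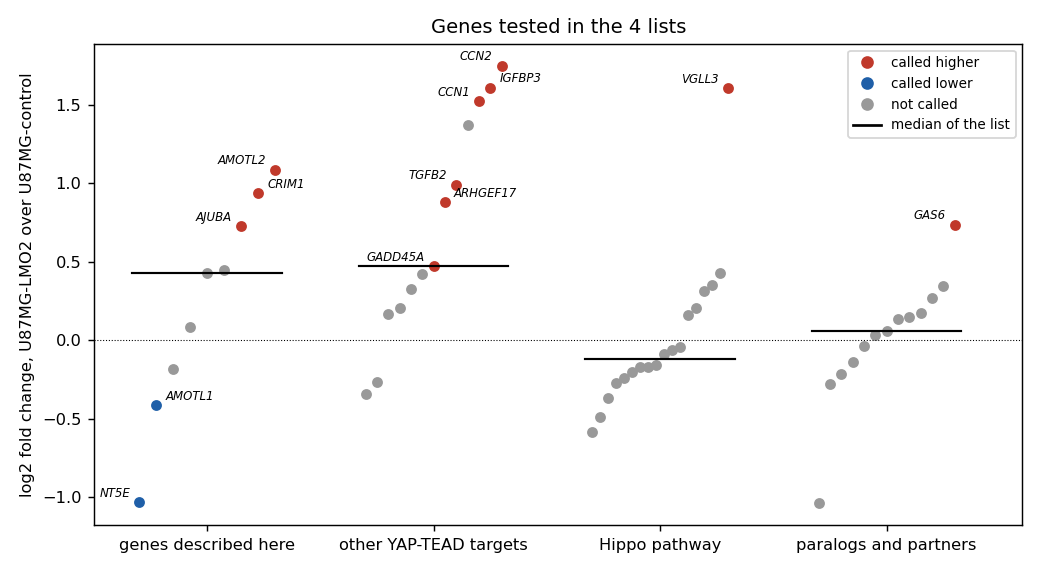
Log2 fold change of U87MG-LMO2 over U87MG-control (vertical axis) for each tested gene of the 4 lists, ordered within a list, with a line at the median; red, called higher; blue, called lower; grey, not called. The medians are 0.43, 0.47, -0.12 and 0.06 from left to right. Blue points occur among the genes described here, AMOTL1 and NT5E, and in no other list. Of all genes tested, 2.75% were called lower.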

How the data were processed

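Total RNA of U87MG cells infected with a control or an LMO2 lentivirus (3 libraries each) was sequenced by a service company. Deposited per gene were expected counts, which the authors estimated and did not normalize (the layout is the one RSEM writes), and the deposited FPKM values are scaled to gene length and mapped reads. The submitters' processing notes name Bowtie2, BWA and GRCh38.p12; the counting program and the versions are not given in the sources used here. The authors' table of the comparison gave symbols and mean FPKM; its columns of log2 ratio, direction and probability were not used. Genes without a line were taken as 0 counts. The table of U87MG-LMO2 replicate 3 has 3 unreadable lines, and 134 genes whose deposited mean did not follow from the libraries within 0.001 FPKM were left out, GFAP among them; none is one of the 10 genes.

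Expected counts were rounded and tested over 16092 genes with edgeR 4.0.16 in R 4.3.3 (filterByExpr, TMM, glmQLFit, glmQLFTest, 2-sided, no block), with Benjamini-Hochberg adjustment over all of them and calls at an adjusted p under 0.05. The SE is the log2 fold change over the square root of F. The study states a fold and a probability but no model. The tests were tested on simulated data. Alternatives were DESeq2 1.42.0, upper-quartile normalization, other filters, limma 3.58.1 on log2(FPKM + 1) and log2(FPKM + 0.1), the replicate block, removal of a GC-content trend (GC content known for 89.8% of the genes; lowess span 0.3) and leaving out libraries. The 10 genes and all lists were chosen with earlier results of these data known. All 10 genes are named; of the lists of other targets, the Hippo pathway and paralogs and partners, the called genes and at most 2 more with the largest change are named; all genes of both marker lists are named as a check of the cells; and YAP1, WWTR1, NF2, TEAD3, RBMS3, TYRO3, MERTK, ENTPD1 and ADORA2B were added after their values were seen. VGLL1 and AMOT were not analysed here, and no protein sequences were used. Depth is given in the results, and intervals cover counting error only where they rest on counts of a single gene, since reads are not independent molecules. Positions are from GENCODE v29 and symbols from RefSeq, matched for 89.6% of the genes.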

Additional observations from a re-analysis of the deposited data

How the results depend on the processing

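AMOTL2 and NT5E kept their direction and their call in all 15 alternatives, with log2 fold changes from 0.88 to 1.18 and from -1.08 to -0.86, and LMO2 in the 14 that tested it. The smallest differences of AMOTL2 and NT5E, 0.88 and -0.86, both came with the GC-content trend removed (edgeR adjusted p 0.0184 and 0.00618). AMOTL1 lost the call in 9 of 15, CRIM1 in 8 and AJUBA in 7, in each case with the same direction. NUAK2 was called in none. Without 1 library each, PTPN14 ranged from -0.0032 (without U87MG-LMO2 replicate 2, adjusted p 0.988) to 0.14, and the cause of the turn was not tested. Of the 10 genes, limma with a pseudocount of 1 and with one of 0.1 FPKM each called 1 higher and 1 lower, with medians of 0.19 and 0.23. Of all 16092 genes tested, these 2 fits called 521 and 512 higher and 369 and 363 lower, against 760 and 443 in the main fit. The replicate block and the removal of the GC-content trend each called 1 lower, the latter with a median of 0.33. Over all genes, the block called 387 higher and 189 lower, and the removal of the trend 544 and 210. DESeq2 called 1 gene of the Hippo pathway lower, where it called 685 of all 15475 genes tested lower.

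A fit blocked on the replicate number called 387 of all genes higher and 189 lower in place of 760 and 443, AMOTL1 (-0.42, adjusted p 0.0868) and CRIM1 (0.94, adjusted p 0.0767) lost their calls at the same size, and the log2 fold change of AMOTL2 was 1.09 and of NT5E -1.03. Taken as deviations from the means of their groups, libraries with the same number correlated at -0.15, -0.03 and -0.08. Of the 6 libraries, 0 correlated best with its own number. The labels give no pairing, and with 3 libraries per group these values cannot tell whether libraries of the same number were prepared together.

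Leaving out libraries, including both that stood apart (chosen after seeing the data), gave from 1 to 4 of the 10 genes higher, from 1 to 3 lower and a median from 0.17 to 0.51. Of all genes tested, the same fits called from 102 to 1570 higher and from 42 to 1384 lower. Leaving out libraries gave from 2 to 9 other YAP-TEAD targets higher. For the Hippo pathway it gave from 1 to 3 genes higher, and for paralogs and partners from 0 to 1 higher and from 0 to 1 lower. Over all genes, 1307 were called higher and 1102 lower without U87MG-LMO2 replicate 3, against 760 and 443 in the main fit. Every other fit that left out 1 library called fewer genes than the main fit in both directions. The cause of these shifts was not tested. The ANKRD1 ratio ranged from 2.62 to 4.15 over these fits. Depth limits ANKRD1, with at most 7 counts in a library. NUAK2 had 94.2 expected counts in its lowest library, U87MG-control replicate 1. Its U87MG-LMO2 libraries spread from 9.24 to 14.98 CPM, and the part of depth in this was not tested.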
